A study of Mus musculus with 34 samples.

Results

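The homeostatic microglia identity genes described here are 9 genes chosen by name: P2ry12, P2ry13, Gpr34, Cx3cr1, Siglech, Tmem119, Fcrls, Olfml3 and Sall1. They were found by symbol among the 16389 genes of an RNA-seq table, where all 9 were present, and all 9 passed the filter on low values that left 14710 genes for testing. The table holds 34 libraries of bulk tissue from C57BL/6 mice, dissected into cortex, hippocampus and thalamus, with the striatum taken along with the thalamus. WT CON mice were neither irradiated nor transplanted and were not given the inhibitor named below (3 cortex, 4 hippocampus and 4 thalamus libraries). GFP-BM CON mice received 1000 cGy of whole-body irradiation and bone marrow from CAG-EGFP donors, whose cells carry green fluorescent protein under the widely active CAG promoter (4, 4 and 3 libraries). GFP-BM REPOP mice received the same irradiation and transplant, and 3.5 months later the CSF1R inhibitor PLX3397 at 600 ppm in chow for 14 days, which removes microglia, followed by 6 months of recovery (4 libraries in each region). Irradiation and transplant are therefore common to GFP-BM CON and GFP-BM REPOP, so the comparison of GFP-BM REPOP with WT CON holds irradiation, transplant and PLX3397 together. Mice of both irradiated groups were 4 months old at irradiation and were taken about 10 months after it. Most animals gave several regions, and the donors' marrow supplies all blood lineages, not monocytes alone.

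Microglia are the resident macrophages of the brain, and under steady conditions they express a set of genes that most other macrophages express little or not at all. The set depends on the brain environment, in particular on TGF-beta signalling, and it is used to tell microglia from macrophages that enter the brain from the blood. The comparisons ask which of the 9 genes kept their level and which were lower in brains whose microglia had been largely replaced by cells derived from bone marrow. The paper reports that pockets of microglia remained in GFP-BM REPOP, and that a smaller share of donor cells also entered the brain in GFP-BM CON. The tissue levels below therefore hold remaining microglia and marrow-derived cells together.

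By role, P2ry12 and P2ry13 encode purinergic receptors that bind ADP, through which microglial processes find sites of injury. Gpr34 encodes a receptor for lysophosphatidylserine, and Cx3cr1 the receptor for the neuronal chemokine fractalkine. Siglech encodes a sialic acid-binding lectin that signals through the adaptor Tyrobp. Tmem119 encodes a transmembrane protein of microglia, Fcrls a surface protein of the Fc receptor-like family, and Olfml3 a secreted protein with an olfactomedin domain. Sall1 encodes a zinc finger transcription factor that holds microglial identity in place.

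The genes lie at chr3:59216271-59262985 (P2ry12), chr3:59207892-59210882 (P2ry13), chrX:13622650-13640859 (Gpr34), chr9:120048683-120068296 (Cx3cr1), chr7:55768154-55779448 (Siglech), chr5:113793729-113800396 (Tmem119), chr3:87250736-87263765 (Fcrls), chr3:103735394-103738001 (Olfml3) and chr8:89027242-89044162 (Sall1) of the GRCm38 build. P2ry12 and P2ry13 lie inside Med12l on the opposite strand, and Gpr34 lies inside Cask on the opposite strand. A strand setting for the read counting is not given in the sources used here, so reads from these genes and from overlapping exons of Med12l or Cask cannot be told apart. The lowest GC contents of the longest annotated transcripts were those of Gpr34 (37.1%) and P2ry12 (38.6%), and the highest was that of Tmem119 (59.1%).

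Of the 9 genes, 7 had an entry in the RefSeq promoter table of GRCm38.p6, which gives 250 bases before to 50 bases after each start. The promoters of P2ry12 and Fcrls are shown because these genes, both on chromosome 3, had log2 fold changes of opposite sign for GFP-BM REPOP against GFP-BM CON, and that of Siglech because it had the lowest cortical log2 fold change of the 9 genes against WT CON. Capitals mark the letters AGGAAGT, the core of the PU.1 motif, and TTGCNNAA, the C/EBP motif, each searched on both strands, so that the reverse complement appears where the match is on the other strand. All are printed 5′ to 3′ along the gene's own strand.
P2ry12 (chr3:59262936-59263235, minus strand): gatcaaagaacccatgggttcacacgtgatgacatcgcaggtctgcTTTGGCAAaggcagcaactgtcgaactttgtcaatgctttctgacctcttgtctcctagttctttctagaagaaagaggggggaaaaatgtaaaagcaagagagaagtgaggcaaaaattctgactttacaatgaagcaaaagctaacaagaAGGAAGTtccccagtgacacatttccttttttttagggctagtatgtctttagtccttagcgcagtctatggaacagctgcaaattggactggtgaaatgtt
Fcrls (chr3:87263475-87263774, minus strand): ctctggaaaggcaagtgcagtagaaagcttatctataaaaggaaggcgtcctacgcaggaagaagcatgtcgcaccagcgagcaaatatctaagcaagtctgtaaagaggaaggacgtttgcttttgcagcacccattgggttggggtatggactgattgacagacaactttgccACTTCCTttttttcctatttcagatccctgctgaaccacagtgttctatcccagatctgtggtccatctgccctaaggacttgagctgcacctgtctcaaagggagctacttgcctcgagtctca
Siglech (chr7:55767934-55768233, plus strand): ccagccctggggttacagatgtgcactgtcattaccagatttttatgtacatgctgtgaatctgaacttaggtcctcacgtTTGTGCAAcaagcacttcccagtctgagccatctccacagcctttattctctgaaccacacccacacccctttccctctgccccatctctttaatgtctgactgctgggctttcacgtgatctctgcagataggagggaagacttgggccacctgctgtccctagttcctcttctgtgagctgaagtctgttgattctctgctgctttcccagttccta

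AGGAAGT was present in the promoters of 3 of the 7 genes, P2ry12 (from -52 to -46, with the base before the start counted as -1), Fcrls (-75 to -69) and Sall1 (-181 to -175 of 1 of its starts), against 9.35% of the 32851 promoters of this length in the table. TTGCNNAA was present in 2 of the 7, P2ry12 (-204 to -197) and Siglech (-169 to -162), against 10.8% of all promoters. The longer PU.1 form GAGGAAGT (3.20% of all promoters), the PU.1 and IRF composite motif (2.72%), the SMAD element AGCCAGACA (0.387%) and the MEF2 motif (0.557%) were in none of the 7. The counts are per gene and the shares per promoter, and Sall1 has more than 1 start in the table, so the 2 are not like for like. These are matches of letters in a short window, not measured binding.

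The libraries held 17085023 to 26010551 reads, recovered from the FPKM values (fragments scaled to gene length and library size), and the 9 genes had between 30 (P2ry12) and 3187 (Sall1) reads in a library. Levels below are FPKM, and differences are log2 fold changes of FPKM plus 0.1 from limma-trend, fitted per region over the 3 groups, with Benjamini-Hochberg adjustment over all 14710 genes and a call at an adjusted p under 0.05. In bulk tissue, fewer cells of a type and less RNA per cell cannot be told apart. In the hippocampus, 3 libraries went against their label: WT CON replicate 2 and GFP-BM REPOP replicates 1 and 4 had 0.875 to 3.32 FPKM of the dentate gyrus gene C1ql2, against 29.3 to 140 in the other 9, and the hippocampus results on the 9 genes are also given without these 3. All 10 general myeloid genes listed for the check of cell type were present in the table, among them Csf1r, Itgam and Spi1, whereas none of the 5 lymphocyte genes and 1 of the 8 blood monocyte genes (S100a9) was in it.

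**Figure D1:**
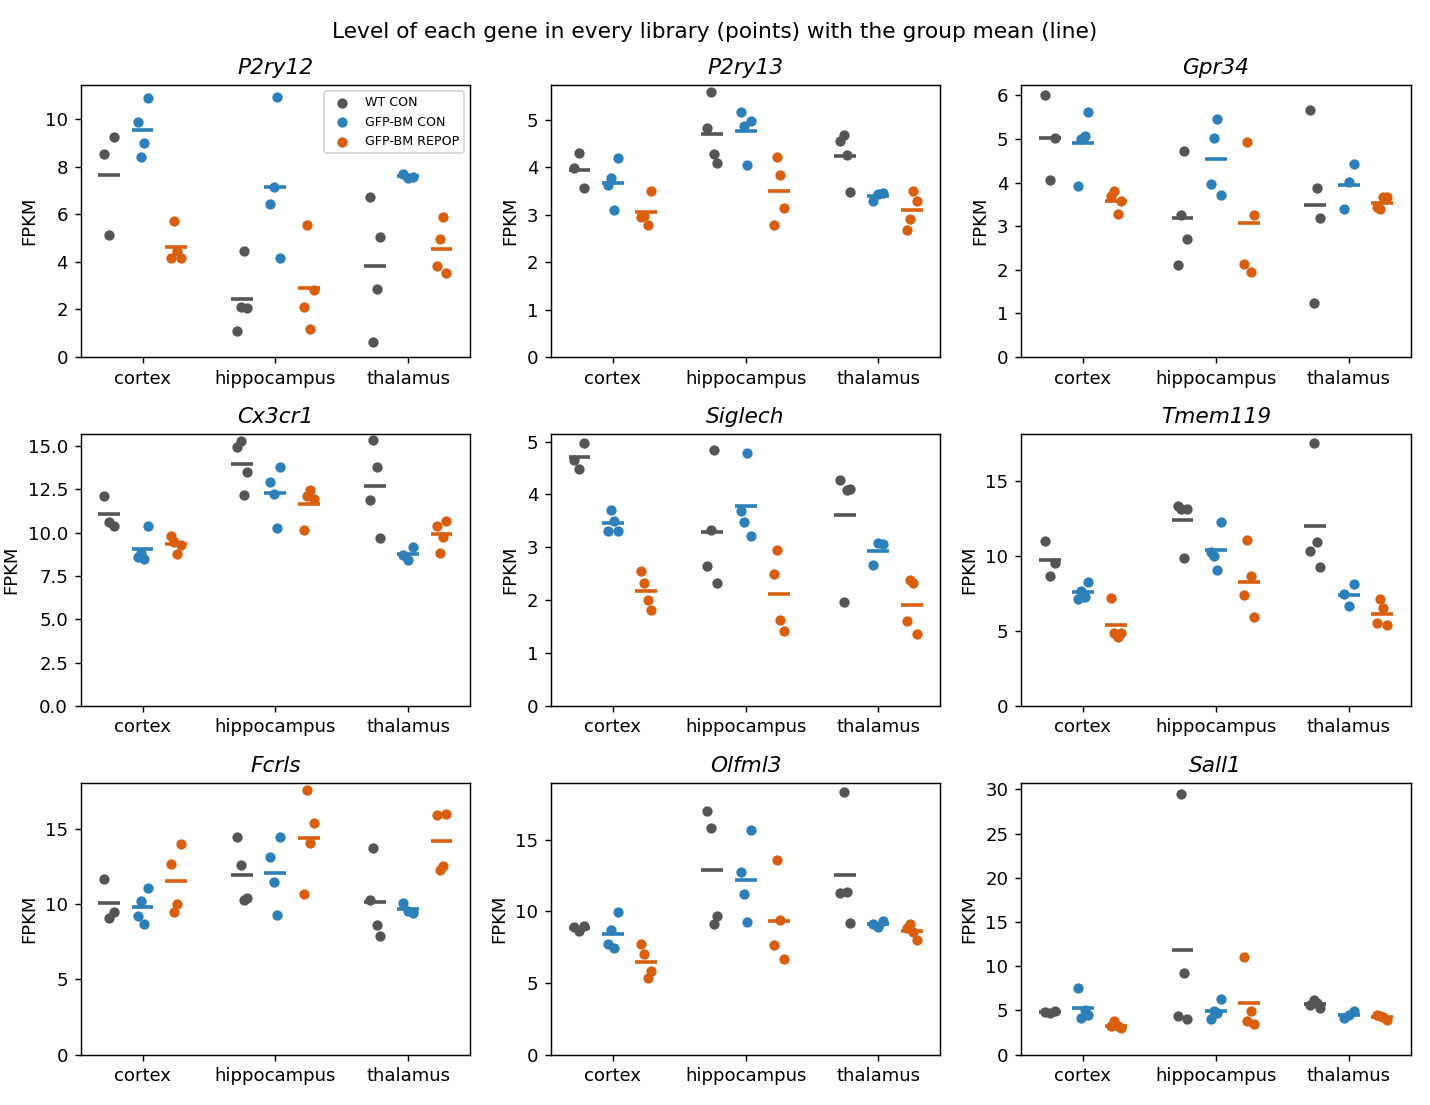
FPKM of each of the 9 genes in every library (points), by region and treatment group, with the group mean as a line. Siglech and Tmem119 in GFP-BM REPOP cortex lie below every WT CON library, Fcrls does not, and Sall1 reaches 29.5 FPKM in a WT CON hippocampus library.

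In the GFP-BM REPOP cortex Siglech and Tmem119 fell relative to WT CON, by 1.09 and 0.86 on the log2 scale, and they were the only genes of the 9 called in any comparison of treatment groups within a region. Of the 9 genes, 2 were thus called lower in the cortex, where 0.333% of all genes were called lower and 0.734% in either direction. With a p under 0.05 before adjustment, 8 of the 9 were lower there, against 5.17% of all genes. In the libraries themselves, 7 of the 9 had every GFP-BM REPOP cortex value below every WT CON value, against 4.6% of all genes, the exceptions being P2ry12 and Fcrls. The median log2 fold change of the 9 genes was -0.46, against 0.02 over all genes tested.

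In the hippocampus and the thalamus limma-trend called 0 of the 9 genes for GFP-BM REPOP against WT CON, where 0.0136% and 0.836% of all genes were called. With an unadjusted p under 0.05, 3 of the 9 were lower in the hippocampus, against 4.75% of all genes. In the thalamus 6 were lower, against 9.96%, and 1 was higher, against 15%. No gene of the 9 had groups without overlap in the hippocampus (1.88% of all genes did, lower in GFP-BM REPOP), whereas Tmem119, Sall1 and Olfml3 did in the thalamus (6.87%). The medians of the 9 genes were -0.43 in the hippocampus and -0.41 in the thalamus, against 0.00 and -0.05 over all genes. In direction, 6 of the 9 genes had a log2 fold change below 0 in all 3 regions (P2ry13, Tmem119, Sall1, Cx3cr1, Siglech and Olfml3), Fcrls had one above 0 in all 3, and P2ry12 and Gpr34 differed in sign between regions. Of all genes, 44.4%, 49.4% and 55.1% were below 0 in cortex, hippocampus and thalamus.

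The hippocampus medians for GFP-BM REPOP were closer to 0 without the 3 libraries low in hippocampus markers, which left 3 WT CON and 2 GFP-BM REPOP libraries. The median of the 9 genes for GFP-BM REPOP against WT CON came to -0.12, against 0.02 over all genes, and limma-trend called 0 of the 9 (0% of all genes), with 0 lower at an unadjusted p under 0.05 (2.79%) and 0 lower without overlap (7.07%). It came to -0.21 without WT CON replicate 2 alone. Without all 3 libraries, P2ry12 had a log2 fold change of 0.24 against WT CON, P2ry13 -0.12, Sall1 -0.33, Cx3cr1 -0.13 and Fcrls 0.44. For GFP-BM REPOP against GFP-BM CON the median came to -0.17, from -0.41 with all libraries, with Tmem119 at -0.08 (from -0.35), Olfml3 at -0.09 (from -0.41) and P2ry13 at -0.23 (from -0.45). P2ry12, Siglech and Gpr34 moved less, to -1.35, -0.74 and -0.51. In that comparison limma-trend called 0 of the 9 (0% of all genes), 0 were lower at an unadjusted p under 0.05 (3.36%), and Siglech alone was lower without overlap (8.07%). For GFP-BM CON against WT CON the median was 0.07 and P2ry12 was at 1.59, with 0 of the 9 called (0.0068% of all genes). At an unadjusted p under 0.05, 0 of the 9 were lower in that comparison (6.75%) and 1, P2ry12, was higher (11%).

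**Figure D2:**
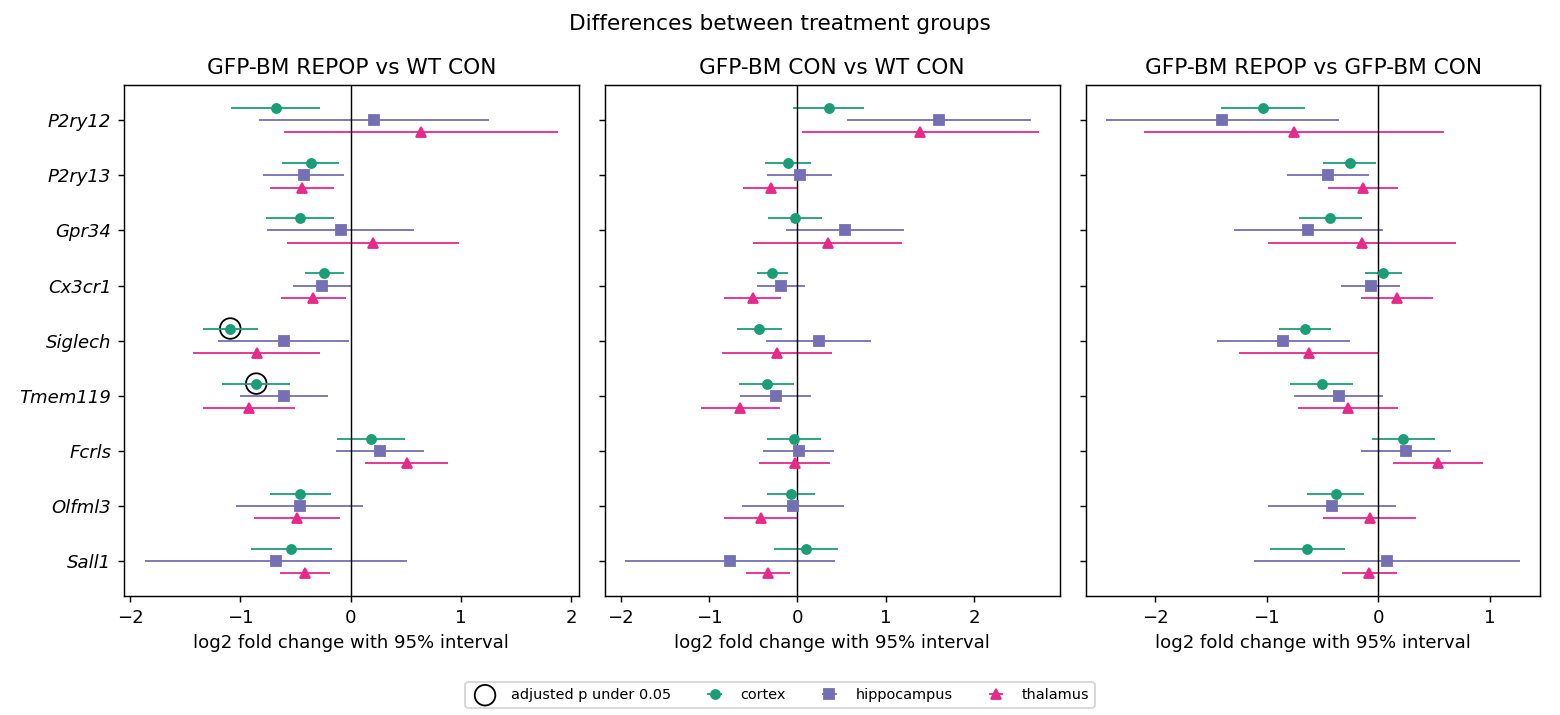
Log2 fold change of each gene (symbols) with its 95% interval (lines) for the 3 comparisons of treatment groups, by region, with circled symbols for an adjusted p under 0.05. In GFP-BM REPOP against WT CON the circled symbols are Siglech at -1.09 and Tmem119 at -0.86 in the cortex, and the intervals of P2ry12 and Gpr34 are wide in the hippocampus and thalamus.

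Siglech had the lowest cortical fold change of the 9 genes. Its level was 4.66, 4.48 and 4.97 FPKM in the WT CON cortex, 3.31, 3.71, 3.50 and 3.32 in GFP-BM CON, and 2.55, 2.32, 1.99 and 1.80 in GFP-BM REPOP. The 3 groups did not overlap, with GFP-BM CON between the other two. GFP-BM REPOP retained 46.1% of the mean WT CON level, and the log2 fold change of -1.09 (SE 0.12) had an adjusted p of 0.00193 in limma-trend. It stayed called without any single library in turn and was not called in 1 fit of all 9 groups (adjusted p 0.0792).

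In the hippocampus Siglech was at 2.64, 3.32, 4.84 and 2.32 FPKM in WT CON, 3.68, 3.48, 4.78 and 3.21 in GFP-BM CON, and 2.49, 2.95, 1.63 and 1.42 in GFP-BM REPOP. The GFP-BM REPOP libraries were all below the GFP-BM CON libraries but overlapped with WT CON. The log2 fold change against WT CON was -0.61 (SE 0.28, adjusted p 0.516), and -0.48 without the 3 libraries low in hippocampus markers. In the thalamus its level was 4.27, 1.96, 4.09 and 4.10 FPKM in WT CON, 2.66, 3.07 and 3.05 in GFP-BM CON, and 1.60, 2.37, 2.32 and 1.37 in GFP-BM REPOP. Only WT CON replicate 2 lay within the GFP-BM REPOP range, and the log2 fold change of -0.85 (SE 0.26) had an adjusted p of 0.113. GFP-BM REPOP replicate 4 had the lowest Siglech level of its group in all 3 regions. Siglech was among the genes that the study chose on these samples as a signature of the engrafted brain, so its direction here is not independent evidence. Tyrobp, the adaptor through which it signals, had log2 fold changes of 0.05, 0.16 and 0.08 in cortex, hippocampus and thalamus (adjusted p 0.929, 0.791 and 0.732).

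The mean Tmem119 level in GFP-BM REPOP was below that of WT CON in every region. Its cortical level was 11.02, 8.67 and 9.52 FPKM in WT CON, 7.15, 7.68, 7.28 and 8.26 in GFP-BM CON, and 7.22, 4.88, 4.61 and 4.88 in GFP-BM REPOP. GFP-BM REPOP replicate 1 was level with the GFP-BM CON libraries, and the other 3 were below all of them. The log2 fold change against WT CON was -0.86 (SE 0.14, adjusted p 0.0175 in limma-trend), with 55.4% of the WT CON mean retained. The call was kept in 7 of the 11 fits that left out 1 library, and was lost, with log2 fold changes of -0.76, -0.87, -0.79 and -0.82 (adjusted p 0.0824, 0.0606, 0.0564 and 0.0531), without WT CON replicate 1, WT CON replicate 3, GFP-BM REPOP replicate 3 and GFP-BM REPOP replicate 4. It was also lost in 1 fit of all 9 groups (adjusted p 0.0522), with only the 2 groups compared (adjusted p 0.0996) and with the replicate block (adjusted p 0.0529). Selplg, a leukocyte adhesion ligand gene within 50 kb of Tmem119, fell by 1.75 in the cortex and by 1.66 in the thalamus on the log2 scale (adjusted p 0.00395 and 0.00867), and was lower by 1.46 in the hippocampus, with a log2 fold change of -1.46 (adjusted p 0.144).

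In the thalamus Tmem119 was at 10.3, 17.5, 10.9 and 9.24 FPKM in WT CON, 7.45, 6.65 and 8.15 in GFP-BM CON, and 5.51, 7.15, 6.52 and 5.38 in GFP-BM REPOP. Both irradiated groups lay below WT CON without overlap. The log2 fold change of -0.92 (SE 0.19) had an adjusted p of 0.0511. In the hippocampus the levels were 13.3, 13.2, 9.84 and 13.2 FPKM in WT CON, 10.3, 10.003, 9.07 and 12.2 in GFP-BM CON, and 7.42, 11.1, 8.63 and 5.94 in GFP-BM REPOP. The groups overlapped, with a log2 fold change of -0.60 (SE 0.18, adjusted p 0.367) that came to -0.29 without the 3 libraries low in hippocampus markers. With each library corrected for GC content and gene length (a correction set out with P2ry12 and Gpr34), the log2 fold changes of Tmem119 were -0.80, -0.42 and -0.52 in cortex, hippocampus and thalamus (adjusted p 0.0137, 0.341 and 0.0509).

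Fcrls was the gene of the 9 whose mean level in GFP-BM REPOP was above WT CON in all 3 regions. Its cortical level was 11.7, 9.10 and 9.51 FPKM in WT CON, 9.21, 10.2, 8.66 and 11.1 in GFP-BM CON, and 12.7, 9.49, 10.002 and 14.0 in GFP-BM REPOP. In the hippocampus it was at 14.5, 12.6, 10.3 and 10.4 FPKM in WT CON, 13.1, 11.5, 9.31 and 14.5 in GFP-BM CON, and 10.7, 17.6, 14.1 and 15.4 in GFP-BM REPOP. The groups overlapped in both regions. The means in GFP-BM REPOP came to 114%, 121% and 140% of WT CON in cortex, hippocampus and thalamus. The log2 fold changes were 0.18 (95% interval from -0.12 to 0.49), 0.26 (from -0.14 to 0.66) and 0.51 (from 0.13 to 0.88), with adjusted p of 0.603, 0.607 and 0.135 in limma-trend. In the thalamus the levels were 10.3, 13.7, 8.60 and 7.87 FPKM in WT CON, 10.1, 9.55 and 9.40 in GFP-BM CON, and 15.9, 12.3, 12.5 and 16.0 in GFP-BM REPOP. Every thalamic GFP-BM REPOP library was above every GFP-BM CON library, as for 2.32% of all genes, and above 3 of the 4 WT CON libraries.

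Cx3cr1, the fractalkine receptor gene, had log2 fold changes of 0.05, -0.07 and 0.17 (cortex, hippocampus, thalamus) for GFP-BM REPOP against GFP-BM CON. The 95% interval in the cortex ran from -0.12 to 0.21. Against WT CON its means were lower, with 84.5%, 83.5% and 78% of the mean retained in GFP-BM REPOP and 82.1%, 87.9% and 69.2% in GFP-BM CON. In the cortex the WT CON libraries were at 12.1, 10.6 and 10.39 FPKM, GFP-BM CON at 8.58, 8.83, 8.48 and 10.36, and GFP-BM REPOP at 9.83, 9.46, 8.77 and 9.29. Both irradiated groups lay just below WT CON without overlap. The log2 fold changes of -0.24 for GFP-BM REPOP and -0.28 for GFP-BM CON had adjusted p of 0.244 and 0.151. In the hippocampus the 3 groups overlapped, at 12.2 to 15.3 FPKM in WT CON, 10.3 to 13.8 in GFP-BM CON and 10.1 to 12.5 in GFP-BM REPOP. In the thalamus GFP-BM CON, at 8.44 to 9.17 FPKM, was below all WT CON libraries, at 9.71 to 15.4, and GFP-BM REPOP, at 8.85 to 10.7, overlapped with them. Cx3cl1, the gene of its ligand, had log2 fold changes of -0.07, 0.08 and -0.28 (adjusted p 0.53, 0.836 and 0.237).

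P2ry12, the gene of the ADP receptor that is often used to stain microglia, had in each region the lowest log2 fold change of the 9 genes for GFP-BM REPOP against GFP-BM CON. Cortex libraries held 8.52, 5.11 and 9.26 FPKM in WT CON, 9.86, 8.39, 8.98 and 10.9 in GFP-BM CON, and 4.17, 5.70, 4.45 and 4.14 in GFP-BM REPOP. GFP-BM REPOP lay below GFP-BM CON without overlap and overlapped with WT CON through WT CON replicate 2. The log2 fold change was -1.03 (SE 0.17, adjusted p 0.0587) against GFP-BM CON and -0.68 (SE 0.18, adjusted p 0.15) against WT CON.

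In the hippocampus P2ry12 was at 1.09, 2.10, 4.43 and 2.07 FPKM in WT CON, 6.41, 7.16, 10.9 and 4.16 in GFP-BM CON, and 2.10, 5.56, 1.17 and 2.81 in GFP-BM REPOP. GFP-BM CON stood highest, at 295% of the WT CON mean, and overlapped with both other groups at its lowest library. The log2 fold change of GFP-BM CON against WT CON was 1.61 (SE 0.48, adjusted p 0.0887) and came to 0.88 after correction for GC content and gene length (adjusted p 0.107), and that of GFP-BM REPOP against GFP-BM CON was -1.40 (adjusted p 0.319). In the thalamus the levels were 6.70, 0.616, 2.86 and 5.03 FPKM in WT CON, 7.67, 7.54 and 7.57 in GFP-BM CON, and 3.83, 4.95, 5.89 and 3.55 in GFP-BM REPOP. The WT CON libraries spread over the whole range of GFP-BM REPOP and beyond. The log2 fold change of GFP-BM REPOP against WT CON was 0.64 (95% interval from -0.61 to 1.88) and turned to -0.04 without WT CON replicate 2. That of GFP-BM CON against WT CON was 1.39, and came to 0.45 after the correction (adjusted p 0.454) and to 0.71 without WT CON replicate 2.

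Gpr34, the lysophosphatidylserine receptor gene, stood at 6.00, 4.05 and 5.02 FPKM in the WT CON cortex, 3.92, 5.01, 5.07 and 5.61 in GFP-BM CON, and 3.69, 3.81, 3.28 and 3.57 in GFP-BM REPOP. GFP-BM REPOP was below both other groups without overlap, with log2 fold changes of -0.46 (adjusted p 0.2) against WT CON and -0.43 (adjusted p 0.765) against GFP-BM CON. In the thalamus WT CON spread from 1.24 to 5.67 FPKM and GFP-BM REPOP from 3.39 to 3.67. Its log2 fold change was 0.20 (95% interval from -0.58 to 0.98) and turned to -0.22 without WT CON replicate 2. In the hippocampus WT CON spread from 2.10 to 4.72 FPKM and GFP-BM REPOP from 1.96 to 4.92, with a log2 fold change of -0.09 that turned to 0.05 without the 3 libraries low in hippocampus markers.

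In WT CON thalamus and hippocampus, P2ry12 and Gpr34 were lowest in the library with the highest GC measure and highest in that with the lowest. The GC measure is the median log2 level of the 10% of genes with the highest GC content minus that of the 10% with the lowest. Gpr34 did not keep the full order in WT CON thalamus, with 3.88 FPKM at a measure of 2.16 and 3.20 at 1.42. In GFP-BM REPOP cortex P2ry12 was lowest, at 4.14 FPKM, at the lowest measure, 0.411. In WT CON thalamus the measure was 1.09, 3.65, 2.16 and 1.42 for replicates 1 to 4, and the P2ry12 level stood in the opposite order, from 6.70 FPKM at a measure of 1.09 to 0.616 at 3.65. In WT CON hippocampus it was 3.39, 2.62, 1.75 and 2.52, and P2ry12 was again highest, at 4.43, at the lowest measure and lowest, at 1.09, at the highest. The measure was 0.411 to 1.24 in the cortex, 0.713 to 3.39 in the hippocampus and 0.453 to 3.65 in the thalamus, and its means were highest in WT CON in each region (0.941, 2.57 and 2.08).

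Tmem119, whose transcript has the highest GC content of the 9, was at its highest level, 17.5 FPKM, in the thalamus library with the measure of 3.65. With each library corrected for GC content and gene length, P2ry12 had log2 fold changes of -0.92, -0.20 and -0.21 in the 3 regions for GFP-BM REPOP against WT CON (adjusted p 0.0113, 0.802 and 0.714). Gpr34 had -0.79, -0.57 and -0.80 (adjusted p 0.0497, 0.231 and 0.0905). In that fit 4 of the 9 genes were called lower in the cortex (P2ry12, Gpr34, Siglech and Tmem119), where 1.38% of all genes were called. Fcrls was called higher in the thalamus, at 0.69 (adjusted p 0.0482), where 2.14% were called. Against GFP-BM CON, P2ry12 and Siglech were called lower in the cortex, at -0.94 and -0.67 (adjusted p 0.0264 and 0.0382), where 0.115% were called. The correction shifted the median of all genes to 0.12 in the thalamus for GFP-BM REPOP against WT CON. Corrected in this way, 8 of the 9 genes had a log2 fold change below 0 in all 3 regions, and Fcrls had one above 0 in all 3. The part that library composition plays in the uncorrected levels was not tested.

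**Figure D3:**
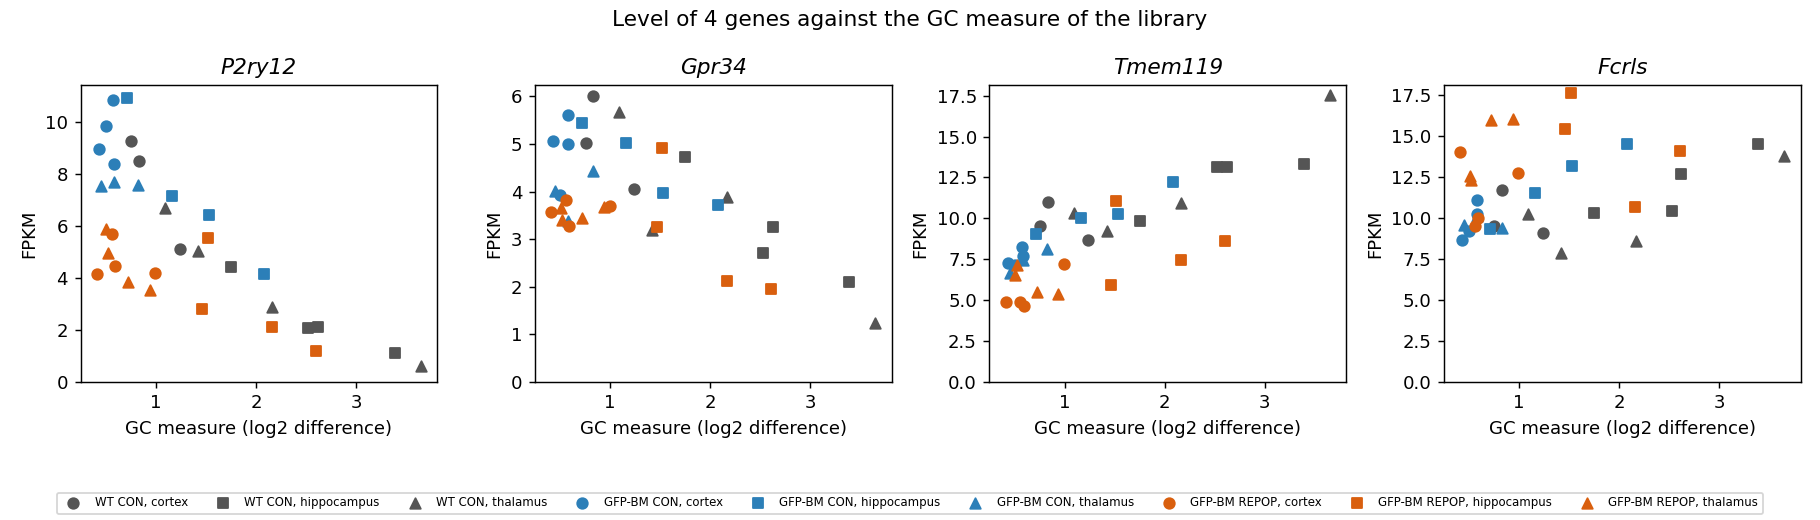
FPKM of P2ry12, Gpr34, Tmem119 and Fcrls against the GC measure of each of the 34 libraries (log2 difference between genes of high and low GC content), with colour for the group and symbol for the region. At the highest measure, 3.65, P2ry12 is at its lowest, 0.616 FPKM, and Tmem119 at its highest, 17.5 FPKM, while Fcrls is at 13.7.

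P2ry13, the other ADP receptor gene, had a lower mean in GFP-BM REPOP in the 3 regions, with log2 fold changes against WT CON of -0.36, -0.43 and -0.44 (adjusted p 0.227, 0.477 and 0.106). Cortex levels were 3.99, 4.31 and 3.56 FPKM in WT CON, 3.63, 3.78, 3.09 and 4.19 in GFP-BM CON, and 2.96, 2.98, 2.78 and 3.50 in GFP-BM REPOP. GFP-BM REPOP was below WT CON without overlap and overlapped with GFP-BM CON. Between 73% and 77.2% of the WT CON mean was retained in the 3 regions. P2ry13 lies next to P2ry12 inside Med12l, and in WT CON thalamus it was at 3.47 to 4.69 FPKM, against 0.616 to 6.70 for P2ry12. In the hippocampus it was at 4.10 to 5.59 FPKM in WT CON, 4.06 to 5.16 in GFP-BM CON and 2.78 to 4.22 in GFP-BM REPOP, which overlapped with both.

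Med12l, the host gene of both, had log2 fold changes of 0.21, 0.42 and 0.83 in cortex, hippocampus and thalamus for GFP-BM REPOP against WT CON (adjusted p 0.265, 0.737 and 0.172). Cask, the host gene of Gpr34, had 0.07, 0.38 and 0.56 (adjusted p 0.528, 0.709 and 0.251). The host genes were thus above 0 in all 3 regions, P2ry13 was below 0 in all 3, and P2ry12 and Gpr34 were below 0 in the cortex. Like their hosts, P2ry12 and Gpr34 were above 0 in the thalamus (0.64 and 0.20), and P2ry12 also in the hippocampus (0.21). In WT CON thalamus Med12l was at 4.59, 1.18, 3.11 and 3.91 FPKM in replicates 1 to 4, the same order as P2ry12. The part that reads of the host genes play in these levels was not tested.

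Olfml3, the secreted member, had a lower mean in GFP-BM REPOP, with log2 fold changes against WT CON of -0.46, -0.46 and -0.49 in cortex, hippocampus and thalamus (adjusted p 0.156, 0.553 and 0.154). In cortex libraries it was at 8.94, 8.61 and 8.99 FPKM in WT CON, 7.75, 8.67, 7.47 and 9.94 in GFP-BM CON, and 7.71, 7.01, 5.36 and 5.85 in GFP-BM REPOP. GFP-BM REPOP lay below WT CON without overlap. In the thalamus the GFP-BM REPOP libraries, at 7.98 to 9.10 FPKM, lay just below WT CON, at 9.16 to 18.3. In the hippocampus WT CON split into 17.0 and 15.8 against 9.10 and 9.66 FPKM, and the log2 fold change came to -0.02 without the 3 libraries low in hippocampus markers.

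Sall1, the transcription factor of the set, varied little within WT CON cortex and thalamus. Its cortical level was 4.79, 4.69 and 4.92 FPKM in WT CON, 7.51, 4.16, 5.03 and 4.46 in GFP-BM CON, and 3.20, 3.77, 3.22 and 2.97 in GFP-BM REPOP. In the thalamus it was at 5.63, 6.15, 5.82 and 5.23 in WT CON, 4.10, 4.54 and 4.90 in GFP-BM CON, and 4.54, 4.35, 4.27 and 3.89 in GFP-BM REPOP. GFP-BM REPOP was below WT CON without overlap in both, with log2 fold changes of -0.54 (SE 0.17, adjusted p 0.208) and -0.41 (SE 0.10, adjusted p 0.0687), and 68.5% and 74.7% of the WT CON mean retained. In the thalamus GFP-BM CON was also below WT CON without overlap, with a log2 fold change of -0.33 (adjusted p 0.17).

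In the hippocampus Sall1 ranged widely, at 4.41, 29.5, 9.26 and 4.05 FPKM in WT CON, 4.03, 4.91, 4.67 and 6.32 in GFP-BM CON, and 11.02, 3.86, 4.91 and 3.47 in GFP-BM REPOP. The libraries with the most Sall1 also had the most Doc2g, a gene of the olfactory bulb that was looked at after the Sall1 values were seen. The 4 libraries with Doc2g above 10 FPKM were WT CON hippocampus replicate 2 (165 FPKM) and replicate 3 (17.5), GFP-BM REPOP hippocampus replicate 1 (70.1) and GFP-BM CON cortex replicate 1 (28.4). They held Sall1 at 7.51 FPKM or more, against 2.97 to 6.32 in the other 30, whose Doc2g was 2.40 to 7.66. Over 6 olfactory genes the summed level in WT CON hippocampus ran from 8.30 to 428 FPKM, in GFP-BM REPOP from 5.10 to 439, and in GFP-BM CON from 7.96 to 13.2. Without the 3 hippocampus libraries with Doc2g above 10 FPKM, the log2 fold change of Sall1 for GFP-BM REPOP against WT CON was -0.07, compared with -0.68 with them. The part that olfactory tissue plays in the Sall1 levels was not tested.

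**Figure D4:**
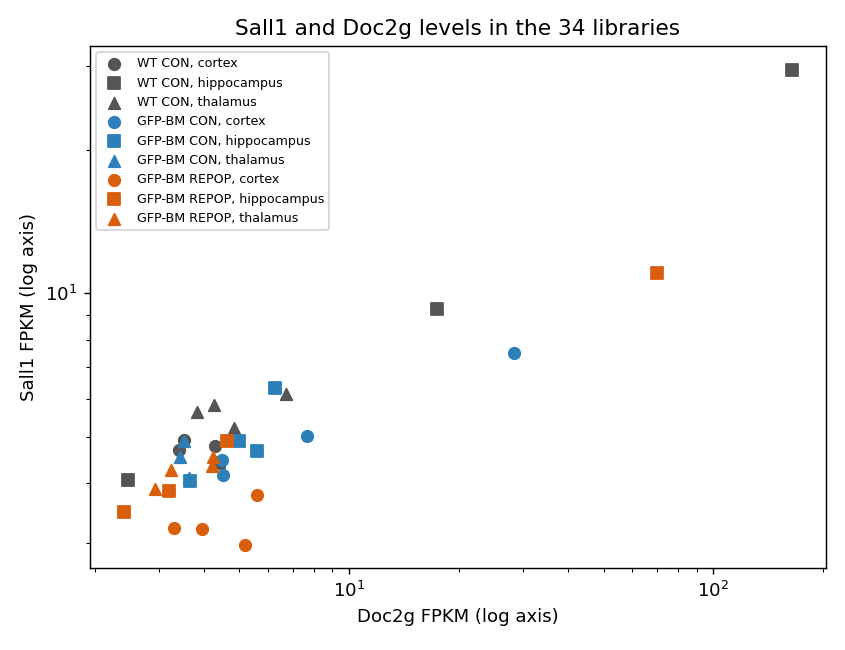
Sall1 against Doc2g level (FPKM, both axes logarithmic) in the 34 libraries, with colour for the group and symbol for the region. The 4 libraries with Doc2g above 10 FPKM are those with the most Sall1, at 7.51 to 29.5 FPKM.

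GFP-BM CON, which shares irradiation and transplant with GFP-BM REPOP but was not given PLX3397, had a cortical median over the 9 genes of -0.07 against WT CON. Limma-trend called 0 of the 9 between GFP-BM CON and WT CON in each region, where 0.32%, 0% and 0% of all genes were called in cortex, hippocampus and thalamus. With an unadjusted p under 0.05, 3 were lower in cortex (3.81% of all genes), 0 in hippocampus (9.23%) and 3 in thalamus (7.16%), and P2ry12 was higher in the hippocampus (14.7%) and the thalamus (13.5%). Groups without overlap were seen lower for Tmem119, Cx3cr1 and Siglech in the cortex (4.43% of all genes) and for P2ry13, Tmem119, Sall1 and Cx3cr1 in the thalamus (8.43%), and for 0 in the hippocampus (8.32%). P2ry12 was higher without overlap in the thalamus (14.6%). The medians in cortex, hippocampus and thalamus were -0.07, 0.01 and -0.30, against 0.02, -0.03 and -0.06 over all genes.

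For GFP-BM REPOP against GFP-BM CON, groups that differ in PLX3397 and in what followed it, limma-trend again called 0 of the 9 genes in each region, where 0.0476%, 0.0272% and 0% of all genes were called. With an unadjusted p under 0.05, 7 of the 9 were lower in the cortex (2.35% of all genes) and 3 in the hippocampus (5.48%), none was lower in the thalamus (0.326%), and Fcrls was higher there (0.619%). Groups without overlap were seen lower for P2ry12, Sall1, Siglech and Gpr34 in the cortex (1.68% of all genes), for Siglech in the hippocampus (2.76%) and for P2ry12 and Siglech in the thalamus (2.24%). Siglech was thus the gene whose GFP-BM REPOP libraries lay below those of GFP-BM CON in all 3 regions, with log2 fold changes of -0.66, -0.85 and -0.62 (adjusted p 0.0587, 0.297 and 1). The medians of the 9 genes were -0.43, -0.41 and -0.14. The 3 comparisons share libraries, so their values stand side by side and are not independent.

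No treatment effect on any of the 9 genes was shown to differ between regions. In a fit of all 34 libraries with the animal as a block, limma-trend called 0 of the 9 for any of the 9 contrasts of a treatment effect between regions, and 0 had an unadjusted p under 0.05. Without the 3 hippocampus libraries low in hippocampus markers 0 were called as well (0% to 0.0136% of all genes in the contrasts with the hippocampus), and an unadjusted p under 0.05 was reached in thalamus minus hippocampus by Tmem119 for GFP-BM REPOP against WT CON (difference -0.64, 15.1% of all genes) and by P2ry13 and Cx3cr1 for GFP-BM CON against WT CON (-0.41 and -0.37, 2.38%). For hippocampus minus cortex, thalamus minus cortex and thalamus minus hippocampus, the shares of all genes called were 0.034%, 0% and 0.034% for the effect of GFP-BM REPOP against WT CON, 0%, 0% and 0% for GFP-BM CON against WT CON, and 0.177%, 0% and 0.0272% for GFP-BM REPOP against GFP-BM CON. At the unadjusted p they were 5.79%, 5.25% and 9.99%, then 10.1%, 3.45% and 2.63%, then 8.52%, 0.204% and 7.64%. Siglech had the lowest p among them, 0.0697, for GFP-BM CON against WT CON in hippocampus minus cortex.

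The members were also set against general myeloid genes, which microglia and monocyte-derived macrophages both express. For each library the median log2 level of 10 such genes (Csf1r, Aif1, Itgam, Itgb2, Tyrobp, Fcer1g, Laptm5, Cd53, Spi1 and Ptprc) was taken from the log2 level of the member, as a description with no test. The median of the 10 genes averaged 2.35, 2.48 and 2.43 in WT CON and 2.13, 2.45 and 2.24 in GFP-BM REPOP, on the log2 scale, in cortex, hippocampus and thalamus. Relative to them, the 9 genes had a median difference of -0.24, -0.40 and -0.22 between GFP-BM REPOP and WT CON. Without the 3 hippocampus libraries low in hippocampus markers, the hippocampus median was -0.25.

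Tmem119 relative to these genes lay below WT CON without overlap in GFP-BM REPOP in all 3 regions, with differences of -0.63, -0.57 and -0.73. Siglech was lower by this measure with differences of -0.87, -0.58 and -0.66, without overlap in the cortex. Sall1 had a difference of -0.31 in the cortex, also without overlap. Cx3cr1 had differences between GFP-BM REPOP and WT CON of -0.01, -0.23 and -0.15 by this measure, and P2ry13 had -0.14, -0.40 and -0.25. Fcrls was higher by 0.41, 0.29 and 0.69, without overlap in the hippocampus and thalamus. The median of the 9 genes depended on the reference. It was -0.06, -0.04 and 0.28 against Csf1r alone, and -0.43, -0.42 and -0.34 against the mean of the 10 genes. It was -0.65, -0.42 and -0.26 against their median after correction for GC content and gene length. Without overlap, 3, 1 and 1 of the 9 were lower and 0, 1 and 1 higher in the 3 regions. Against Csf1r alone 2, 0 and 0 were lower and 1, 1 and 1 higher. Against the mean 6, 3 and 5 were lower and 0, 0 and 1 higher. After the correction 8, 0 and 1 were lower and 0, 1 and 1 higher. Tmem119 in the hippocampus was thus not lower without overlap against Csf1r alone or after the correction. The share of all genes without overlap by this measure is not given. Csf1r itself, the receptor that PLX3397 inhibits, fell by 0.40 in GFP-BM REPOP and by 0.74 in GFP-BM CON in the cortex on the log2 scale (adjusted p 0.0211 and 0.00224).

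**Figure D5:**
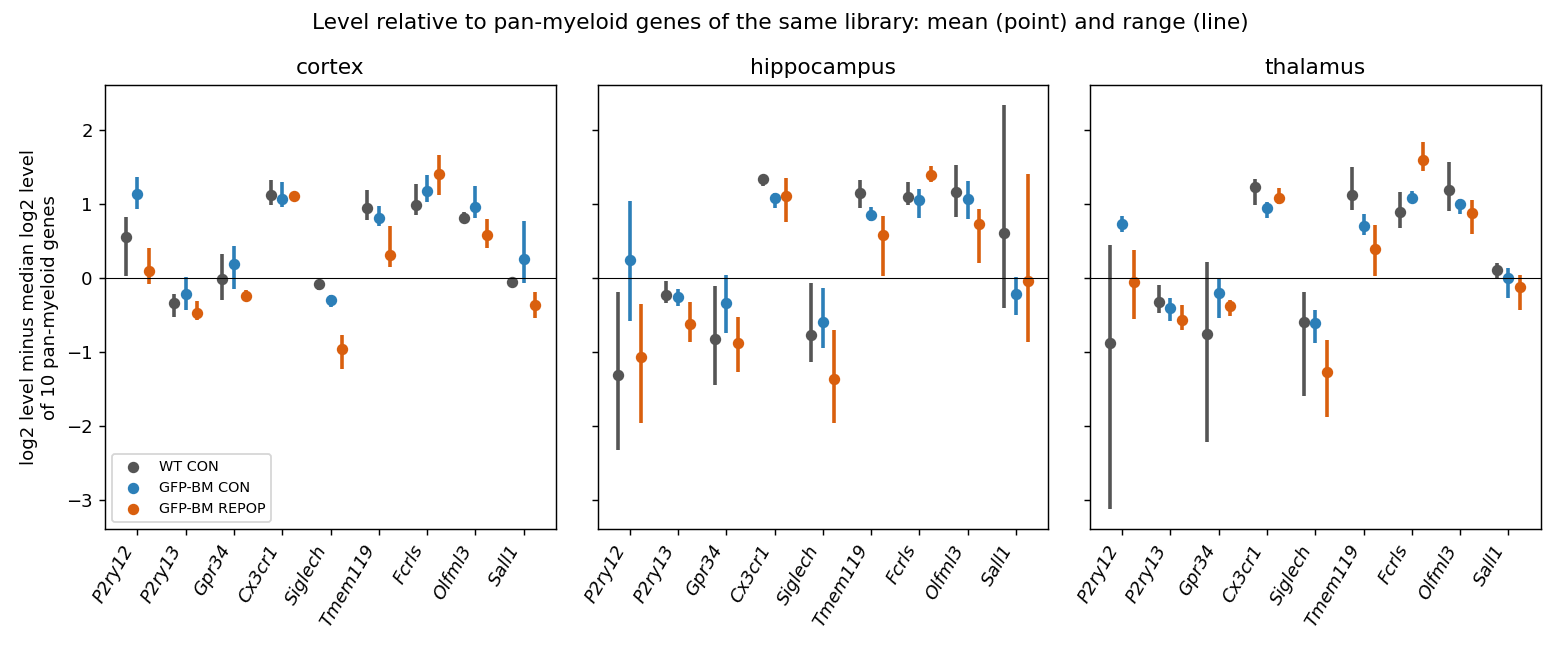
Log2 level of each of the 9 genes minus the median log2 level of 10 general myeloid genes of the same library, by region, with the mean (points) and range (lines) of each treatment group. Tmem119 in GFP-BM REPOP lies below WT CON without overlap in all 3 regions, and Fcrls lies above it in hippocampus and thalamus.

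In untreated brain, the mean levels of the 9 genes in WT CON cortex ran in the order Cx3cr1 (11.05 FPKM), Fcrls (10.1), Tmem119 (9.74), Olfml3 (8.85), P2ry12 (7.63), Gpr34 (5.02), Sall1 (4.80), Siglech (4.70) and P2ry13 (3.95). FPKM is per gene length, and the libraries of neighbours in this order overlapped except for Siglech and P2ry13. Between WT CON regions, P2ry12 was lower in the hippocampus and thalamus than in the cortex, by -1.73 (SE 0.52, adjusted p 0.0112) and -1.35 (SE 0.52, adjusted p 0.0491) as log2 differences in limma-trend. Cx3cr1 was higher in the hippocampus than in the cortex by 0.33 (SE 0.13, adjusted p 0.0366), a call that was lost without WT CON hippocampus replicate 2 and the other 2 libraries low in hippocampus markers (0.28, adjusted p 0.0946). P2ry12 stayed called without them, at -1.68 (adjusted p 0.0284), where 35% of all genes were called. These 2 genes of 9 were called between hippocampus and cortex, where 36.9% of all genes were called, and P2ry12 alone between thalamus and cortex, where 30% were. Between thalamus and hippocampus limma-trend called 0 of the 9, where 17.7% of all genes were called, and 0 had an unadjusted p under 0.05 (31.5% of all genes), and it called 0 without the 3 libraries (19.5%). The GC measure differed between these groups too, as given above, and its part in the P2ry12 difference was not tested.

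Across the 34 libraries, with each region centred on its own mean, the 36 pairs of members had Pearson correlations of their log2 levels from -0.65 (Siglech with Fcrls) to 0.89 (P2ry12 with Gpr34), with a median of 0.20. The libraries share treatment groups, GC measure and depth, so these values are descriptive. They include the 3 hippocampus libraries low in hippocampus markers and the libraries high in Doc2g, and values without them are not given. Tmem119, Olfml3, P2ry13 and Cx3cr1 stood together, with Tmem119 and Olfml3 at 0.85, P2ry13 and Olfml3 at 0.79, and Cx3cr1 with Tmem119 and with Olfml3 at 0.70. P2ry12 and Gpr34 stood apart from them, with P2ry12 and Cx3cr1 at -0.54.

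Over all 14710 genes, the gene most like Tmem119 was Selplg (0.92), the gene most like Cx3cr1 was Csf1r (0.87), and the gene most like Fcrls was Cd68 (0.85), which encodes a lysosomal protein of macrophages. The gene most like Sall1 was Sp7 (0.94), with Doc2g at 0.92. The gene most like Siglech was the predicted gene Gm21075 (0.83), and the gene most like P2ry12 was the mitochondrial gene ND3 (0.90), followed among the members by Gpr34 (0.89). P2ry13 was most like Olfml3 (0.79) and then Slc2a5 (0.78), Gpr34 most like P2ry12 and then Pabpc1 (0.83), and Olfml3 most like Tmem119 and then Cst3 (0.84). The mean standardized level of the 9 genes was most like Itgam (0.81), Selplg (0.80), Slc2a5 (0.78) and Crybb1 (0.74).

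Among 20 other microglial genes, 6 were called lower in the cortex of GFP-BM REPOP against WT CON (among them Crybb1, Slc2a5, Lag3 and Selplg), 0 in hippocampus and 4 in thalamus (Crybb1, Slc2a5, Lag3 and Selplg), and none was called higher. Several of these were in the signature that the study chose on these samples, so the count is not independent of them. Of all genes, 0.734%, 0.0136% and 0.836% were called in either direction in cortex, hippocampus and thalamus. The median log2 fold changes of the 20 microglial genes were -0.22, -0.36 and -0.39, beside -0.46, -0.43 and -0.41 for the 9 genes. Without the 3 libraries low in hippocampus markers the hippocampus medians were -0.27 and -0.12. Crybb1, a crystallin gene of mature microglia, fell by 2.42 in the cortex and by 2.46 in the thalamus on the log2 scale (adjusted p 0.00182 and 0.00239), and it had 17.4% and 16.3% of the WT CON mean, beside 46.1% and 53.1% for Siglech. Lag3, an immune receptor gene, fell by 1.82 in the cortex and fell by 1.87 in the thalamus (adjusted p 0.00851 and 0.00352).

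In the same libraries the 10 genes listed for engrafted macrophages, 5 of them also in that signature, had median log2 fold changes of 1.91, 1.63 and 1.98. Their hippocampus median was 1.72 without the 3 libraries. In cortex, hippocampus and thalamus 8, 0 and 7 were called higher, where 0.734%, 0.0136% and 0.836% of all genes were called in either direction. Ms4a7, a membrane-spanning gene of macrophages, was 3.96 higher in the cortex and 3.98 in the thalamus (adjusted p 0.000161 and 0.00128), Lyz2, the gene of lysozyme, 3.09 and 2.99 (adjusted p 7.49e-05 and 0.00128), and Cybb, of the phagocyte oxidase, 2.90 and 3.07 (adjusted p 0.00323 and 0.00185). Of 5 tested genes of border macrophages, 2, 0 and 1 were called higher, among them Mrc1 at 1.78 and 1.59 (adjusted p 0.00662 and 0.0438). Pf4 and Stab1 of that list had mean log2 fold changes over the regions of 1.18 and 0.56. Of 9 tested general myeloid genes, 2, 0 and 1 were called lower (Csf1r and Itgam, and Itgam in the thalamus), with medians of -0.11, -0.14 and -0.21. Mrc1 and Itgam were also in the signature that the study chose on these samples, so their calls are not independent of it. For both lists the shares of all genes called are those given for the engrafted macrophage genes.

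Genes that act with the members were looked at by list. Of 9 tested genes of ligands and signalling partners (such as Cx3cl1, Adam10, Entpd1 and Abhd12) limma-trend called 0 in each region for GFP-BM REPOP against WT CON. At an unadjusted p under 0.05, 2, 0 and 2 were lower, against 5.17%, 4.75% and 9.96% of all genes. Adam10, which sheds fractalkine, had a mean log2 fold change of 0.50 over the regions, Entpd1, which breaks down ATP and ADP, -0.20, and Abhd12, which hydrolyses lysophosphatidylserine, -0.15. Of 12 genes of TGF-beta signalling, 1 was called, Itgb8, of the integrin that activates TGF-beta, at 2.19 in the thalamus (adjusted p 0.0493), where 0.836% of all genes were called. The medians of the list were 0.01, 0.03 and 0.03. Tgfbr1 had -0.04, 0.33 and 0.98 (adjusted p 0.887, 0.767 and 0.164). Of 10 tested transcription factor genes, limma-trend called 0 in each region. At an unadjusted p under 0.05, 0, 0 and 0 were lower (5.17%, 4.75% and 9.96% of all genes) and 1, 3 and 1 higher (15% of all genes in the thalamus). The shares of all genes higher in cortex and hippocampus are not given, so the counts there cannot be set against them. Spi1, the gene of PU.1, had 0.08, 0.28 and -0.11 (adjusted p 0.927, 0.717 and 0.771). Mef2a had 0.40, 0.84 and 1.72 (adjusted p 0.163, 0.583 and 0.107), and Mef2c and Maf had means over the regions of 0.76 and 0.29. The GC contents of Itgb8, Tgfbr1, Mef2a, Mef2c and Adam10 were 40.4%, 41%, 42%, 40.8% and 42.1%, against 58.9% for Spi1. The values of these lists were not corrected for GC content and gene length. The GC measure was highest on average in WT CON in each region, and its part in these values was not tested.

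Markers of other cells were compared in the same way. The median log2 fold changes of the lists for neurons, astrocytes, oligodendrocytes, endothelium and red cells ran from -0.39 to 0.29 over the regions for GFP-BM REPOP against WT CON, with 0 genes called by limma-trend, and with 4, 1 and 5 genes at an unadjusted p under 0.05. These lists hold 5 genes each, and 4 for red cells. Of all genes, 5.17%, 4.75% and 9.96% were lower at that p, and 15% were higher in the thalamus. The shares higher in cortex and hippocampus are not given, so the counts there cannot be set against all genes. Choroid plexus genes had medians of -1.12, -1.09 and 0.34 with 0 called, and 3 of 5 were lower in cortex libraries with an unadjusted p under 0.05 (5.17% of all genes). Lists of regional neurons had medians from -1.11 (hippocampus genes in the hippocampus) to 0.95 (thalamus genes in the cortex), with Zbtb20 called higher in cortex and thalamus, at 1.74 and 3.00 (adjusted p 0.00271 and 0.0417). Zbtb20 had a GC content of 43%, and its values too were not corrected for GC content and gene length. The part that other cells and regional tissue play in the results on the 9 genes was not tested.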

How the data were processed

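RNA of dissected cortex, hippocampus and thalamus with striatum was sequenced by the authors as paired reads, aligned with STAR to mm10 and counted with featureCounts, per the methods and the submitters' processing notes. The deposited table gives FPKM values of 16389 genes in 34 libraries, computed by the authors with edgeR and limma, per the submitters' processing notes, on a linear scale. Each value was a whole multiple of a step per gene and library (100% of values, tolerance 0.01 reads), from which reads per library of 17085023 to 26010551 were recovered. Replicates are separate animals, and an animal gave several regions. Genes at 1 FPKM or more in at least 3 libraries that were protein coding, long non-coding or of unknown type were tested (14710), on log2(FPKM + 0.1), with limma-trend (limma 3.58.1, R 4.3.3), two-sided, with Benjamini-Hochberg adjustment and a threshold of 0.05. The 3 groups of a region shared a fit. Contrasts between regions came from a fit of 9 groups in which the animal was a random effect (estimated correlation -0.0384). The script was tested on simulated data. RefSeq (GRCm38.p6) gave positions and promoters, and GENCODE transcripts gave GC content for 94.3% of tested genes.

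The members and lists were chosen with earlier results of these data known. Named beside the members are the 3 tested genes of a list with the largest absolute mean log2 fold change of GFP-BM REPOP against WT CON over the regions. Also named are Med12l, Cask and Selplg, and the genes most like the members by Pearson correlation. Genes named as called or as the ligand or adaptor of a member, and Doc2g, C1ql2 and Spi1, were added after values were seen. Lists of neurons, astrocytes, oligodendrocytes, endothelium, choroid plexus, red cells and regional neurons served as checks. Some genes that the naming rule covers are not reported here. Alternatives were pseudocounts of 1 and 0.01, no filter and a stricter one, quantile and median-ratio scaling, other sample sets, a replicate block, voom on recovered reads, a correction for GC content and length by splines, leaving out each library, and other references for the relative level. Leaving out the hippocampus libraries low in markers (also in contrasts between regions) or high in Doc2g, and the thalamus library with the highest GC measure, was chosen after seeing the data.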

Additional observations from a re-analysis of the deposited data

Results flagged for a closer look

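In groups of 4 libraries, 3 of the 63 combinations of gene, region and treatment group held a library whose gap to its nearest neighbour exceeded Dixon's critical value at the 95% level as a share of the group's range, which chance alone does in about 1 group in 20. Tmem119 stood at 7.22 FPKM in GFP-BM REPOP cortex replicate 1, against 4.61 to 4.88 in the other 3 libraries. Tmem119 stood at 9.84 FPKM in WT CON hippocampus replicate 3, against 13.2 to 13.3 in the others. Siglech stood at 1.96 FPKM in WT CON thalamus replicate 2, against 4.09 to 4.27 in the others. That thalamus library had the highest GC measure of its group, 3.65, and the lowest P2ry12 level, 0.616 FPKM. GFP-BM REPOP cortex replicate 1 also had the highest GC measure of its group, 0.994, and WT CON hippocampus replicate 3 the lowest of its group, 1.75. The part that the GC measure plays in these values was not tested.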

How the results depend on the processing

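Limits are set by 3 or 4 animals a group, by 30 reads of P2ry12 in its lowest library, and by libraries that differ in GC measure and in dissection. Over the 9 genes, 3 comparisons and 3 regions together, 913 fold changes under alternative settings kept both the sign and the side of the threshold, 26 passed it only there, 4 were past it only as reported, and 29 changed sign. With 1 library left out these numbers were 876, 12, 4 and 26. Of the levels relative to general myeloid genes, which have no test, 211 moved by less than 1 SD of the replicates and 113 by more. In the 3 comparisons the number of the 9 genes called moved as follows, and unless a cause follows from the setting itself (fewer samples, fewer genes), the cause was not tested. For GFP-BM REPOP against WT CON in the cortex, 2 called became 0 in 1 fit of all 9 groups, 1 with only the 2 groups compared, 1 with the replicate block and 4 after correction for GC content (with length), and 1 to 3 when 1 library was left out. In the thalamus, 0 became 1 with a pseudocount of 1, 1 without the filter, 4 with quantile normalization, 5 in 1 fit of all 9 groups, 1 with the GC correction and 2 without the WT CON library of highest GC measure, and 0 to 2 when 1 library was left out. Set against GFP-BM CON, 0 in the GFP-BM REPOP cortex became 1 with a pseudocount of 1, 1 with quantile normalization, 1 with only the 2 groups and 2 with the GC correction, and 0 to 2 when 1 library was left out, and 0 in the hippocampus became 2 in 1 fit of all 9 groups. For GFP-BM CON against WT CON, 1 fit of all 9 groups called 1 in hippocampus and 2 in thalamus, and leaving out 1 library called 0 to 1 in the hippocampus.

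The median of the 9 genes relative to general myeloid genes became 0.28 in the thalamus for GFP-BM REPOP against WT CON, and 0.67 (cortex) and 0.72 (thalamus) for GFP-BM CON against WT CON, with Csf1r alone as reference. Of GFP-BM REPOP against GFP-BM CON it became -0.57 for the cortex and -0.31 in the thalamus with the mean as reference, -0.78 and -0.46 with Csf1r alone, and -0.28 in the thalamus after GC correction.

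Single genes changed sign near 0 or in the hippocampus and thalamus. For GFP-BM REPOP against WT CON, P2ry12 came to -0.20 (hippocampus) and -0.21 (thalamus) after GC correction and -0.0416 in the thalamus without the library of highest GC measure. Gpr34 came to 0.0537 and 0.39 in the hippocampus without the 3 libraries low in markers and without the 3 high in Doc2g, and in the thalamus to -0.12 (quantile), -0.80 (GC correction) and -0.22 (without the highest GC measure). For GFP-BM CON against WT CON in the hippocampus, P2ry13 came to -0.17 (quantile), -0.0262 (voom on recovered reads) and -0.12 (GC), Fcrls to -0.0084 (quantile), -0.0474 (voom) and -0.0403 (without high Doc2g), Tmem119 to 0.11 (GC), Gpr34 to -0.33 (GC), Olfml3 to 0.0735 (GC) and 0.0683 (without low markers), and Sall1 to 0.21 (without high Doc2g). In the thalamus Fcrls came to 0.0141 (median-ratio), 0.16 (GC) and 0.13 (without the highest GC measure), and Gpr34 to -0.80 (GC) and -0.0731 (without the highest GC measure). In the cortex Fcrls came to 0.0307 (GC). In the hippocampus for GFP-BM REPOP against GFP-BM CON, Sall1 came to -0.17 (without low markers) and -0.28 (without high Doc2g), and Cx3cr1 to 0.0094 (without low markers).

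Leaving out 1 library gave ranges that cross 0 for P2ry12 against WT CON in GFP-BM REPOP (-0.16 to 0.55 in the hippocampus, -0.0416 to 1.04 in the thalamus) and for Gpr34 (-0.34 to 0.11 and -0.22 to 0.49). In GFP-BM CON against WT CON they were -0.17 to 0.11 (cortex) and -0.0731 to 0.63 (thalamus) for Gpr34, -0.11 to 0.0669, -0.0783 to 0.13 and -0.14 to 0.13 for Fcrls in cortex, hippocampus and thalamus, -0.0804 to 0.20 for Sall1 in the cortex, and -0.20 to 0.10 for Olfml3 and -0.0380 to 0.11 for P2ry13 in the hippocampus. Sall1 in the hippocampus ranged from -0.28 to 0.27 for GFP-BM REPOP against GFP-BM CON.

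Without the 3 hippocampus libraries low in markers, WT CON hippocampus minus cortex called 1 of the 9 genes in place of 2, and differences between regions changed sign. In hippocampus minus cortex, the effect of GFP-BM REPOP against WT CON came to 0.24 for P2ry13, 0.22 for Sall1, 0.105 for Cx3cr1 and 0.44 for Olfml3, and that against GFP-BM CON to 0.0234 for P2ry13 and 0.29 for Olfml3. In thalamus minus hippocampus, Sall1 came to 0.0519 within WT CON, and its treatment effects to -0.0891 for GFP-BM REPOP and -0.17 for GFP-BM CON (both against WT CON) and 0.0848 between the irradiated groups, Tmem119 to -0.20 between the irradiated groups, and Olfml3 to 0.0915 (WT CON).

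The replicate numbers do not join animals of different treatments, and deviations of same-numbered libraries from their group means correlated from -0.433 to 0.490 over 32 pairs. With the replicate block, 1 of the 9 genes was called in the cortex for GFP-BM REPOP against WT CON, and Olfml3 in the thalamus came to 0.0057 for GFP-BM REPOP against GFP-BM CON.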
